A study of Mus musculus with 8 samples.

Results

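The protein-folding machinery was represented by 83 of the 30175 gene names on the array, read by 120 of 39429 probes. They were all the non-control probes whose gene name in the scanner files began with Hspa, Hspb, Hsp90, Hspd, Hspe, Hsph, Dnaja, Dnajb or Dnajc, was Tcp1, or was Cct followed by a number from 2 to 8. Gene expression was measured on 4 two-colour Agilent arrays in total RNA from adult male C57Bl/6j mice. The heterozygous group held 4 Brd2+/- mice, which carry a gene-trap insertion in 1 copy of Brd2, and the wildtype group held 4 mice without it. All were offspring of Brd2+/- parents at the 7th backcross generation, with a stated background of 99% C57Bl/6J. Each array carried 2 mice of 1 genotype, the first labelled with Cy3 and the other with Cy5, so each genotype rested on 2 arrays and 4 mice. The labels name the striatum in the tissue and dissection fields and the left atrium of the heart in a free description.

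Heat shock proteins are chaperones that hold unfolded proteins and help them reach or regain their shape. Hsp70 proteins bind short exposed stretches in cycles of ATP hydrolysis, which Dnaj co-chaperones (Hsp40 proteins) start and Hsp110 proteins, acting as nucleotide exchange factors, reset. Hsp90 finishes kinases and hormone receptors, small heat shock proteins hold aggregating proteins without ATP, and the chaperonins Hspd1-Hspe1 (mitochondria) and TRiC (cytosol) enclose proteins in a chamber. Some of these genes are induced by the heat shock factor Hsf1 under stress, while close relatives are expressed constantly, in neurons at high levels. Brd2 is a bromodomain protein that binds acetylated histones and takes part in transcription.

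Brd2 itself was measured by a pair of probes on chromosome 17 (mm9). The probe at chr17:34255967-34256026 had log2 levels of 7.75, 8.07, 8.04 and 8.16 in the heterozygous samples, against 7.39, 7.31, 6.90 and 6.90 in the wildtype samples. Its fitted difference was 0.88 (SE 0.28, limma adjusted p = 0.50), and that of the probe at chr17:34248982-34249041 was 0.28 (SE 0.35, adjusted p = 0.931). The labels do not say where in Brd2 the trap lies, so neither probe checks the genotypes. All 14 striatal projection neuron markers were well above background in all 8 samples, while of 7 atrial markers Actc1 and Myl7 were above background in none, 1 was above it in all 8 and Nppa and Tnnt2 were in 7. The log2 summed level of the striatal list, over 11 of its 14 genes, was 18.14 to 18.60 in the heterozygous samples. In the wildtype samples it was 17.02 to 18.12, so the genotypes barely parted. The summed level of the microglial list was 13.08 to 13.39 in the heterozygous samples and 12.86 to 12.97 in the wildtype samples. The endothelial list ran the other way, at 11.05 to 11.71 in the heterozygous samples and 12.21 to 12.49 in the wildtype samples, and the summed levels of these lists therefore did not overlap between genotypes. Their part in the chaperone values was not tested, and in tissue RNA fewer cells of a type and less RNA per cell cannot be told apart. Between 16398 and 24867 probes per sample were well above background, the lowest in heterozygous replicate 3, and no spot was saturated. The levels correlated at 0.986 to 0.989 between the mice of 1 array and at 0.925 to 0.959 between arrays.

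Of the 120 chaperone probes, 97 (72 genes) stood clearly above background in 4 or more samples. The other 23 included every probe of 11 genes: Cct6b, Cct8l1, Dnajb13, Dnajb7, Dnajb8, Dnajc22, Dnajc28, Dnajc5b, Dnajc5g, Hspb7 and Hspbap1, and 14 of the 23 were above background in no sample. A further 30 probes had no value in at least 1 sample, because the scanner software marked their spot there as non-uniform. They were 30.9% of the 97, while 17.4% of all kept probes were left out for marked spots. The fit therefore held 67 chaperone probes of 52 genes. Such marks removed bright probes most often. With all kept probes split into 5 equal groups by level, 51.0% of the brightest group were left out, against 0.314% of the dimmest. Of the 29 chaperone probes in the brightest group, 65.5% were left out. The marked probes include those of Hsp90aa1, Hspa5, Hspd1, Hsph1, Hspb1 and Dnajb1, and all values of marked probes below come from a fit of 22288 probes that kept the marked spots, as stated beside each.

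No chaperone probe passed limma's test at an adjusted p of 0.05, and neither did any of the 18399 probes tested (0.00% called). The lowest adjusted p was 0.444 among the chaperones and 0.437 among all probes. In simulated data the fit recovered only 4% of 2-fold changes, so this result cannot exclude changes of that size. At an unadjusted p under 0.05 there were 8 of 67 chaperone probes, or 11.9% against 8.05% of all probes. Of these, 2 were higher in heterozygous mice (3.83% of all probes were) and 6 lower (4.22%). In 11 of the 67 probes (16.4%) the 4 heterozygous levels did not overlap the 4 wildtype levels, against 17.0% of all probes, with 4 higher in heterozygous mice (7.86% of all probes) and 7 lower (9.1%). Fitted differences, heterozygous minus wildtype on the log2 scale, were above 0 for 31 (47.6% of all probes) and below 0 for 36, with a median of -0.05, beside -0.02 over all probes. With marked spots kept, 16 of 97 chaperone probes (16.5%) had an unadjusted p under 0.05, against 8.83% of all probes, none had an adjusted p under 0.05, and the median was 0.01. Leaving out 1 array at a time moved the difference by over 1.5 times, or turned its sign, in 26 of the 37 probes named by a set rule. Probes named outside that rule were not part of this count.

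**Figure D1:**
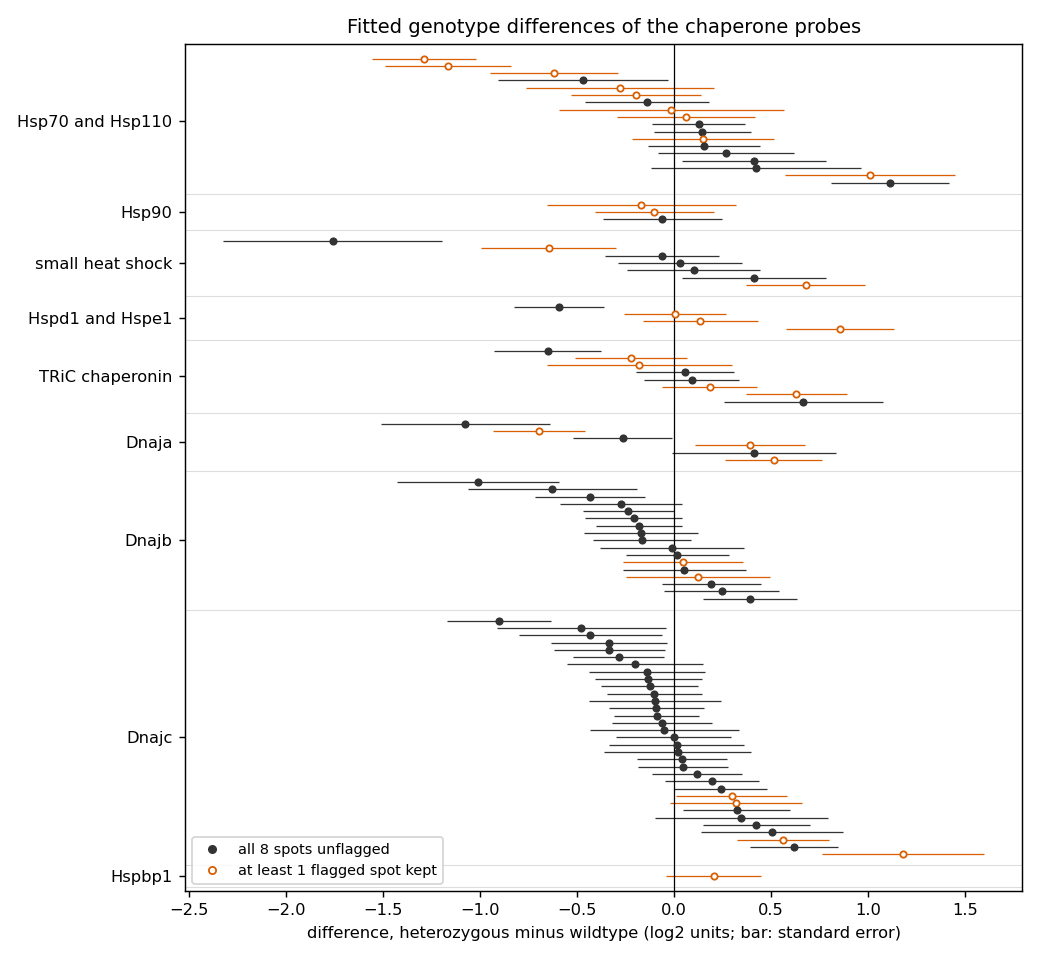
Fitted difference in log2 level, heterozygous minus wildtype (x axis), for each of the 97 chaperone probes above background, grouped by protein family and ordered by size within each, with standard errors as bars. Filled points are the 67 tested probes and open points the 30 whose marked spots were kept. Among the 67, only the repeated Dnajc11 probe had marked spots, which were left out of its mean. Every family has probes on both sides of 0 except Hsp90, with 3 probes just below it, and the single Hspbp1 probe.

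In the Hsp70 and Hsp110 family, 7 of 9 tested probes lay above 0, with a median difference of 0.15. Among the tested chaperone probes, that of Hspa12a, a divergent Hsp70 relative found in brain, had the lowest p (chr19:58870521-58870580, mm9). Its log2 levels were 8.98, 9.30, 8.96 and 9.27 in the heterozygous samples, against 8.25, 8.32, 7.46 and 8.02 in the wildtype samples. Every heterozygous sample was above every wildtype sample. The difference was 1.11 (SE 0.30, 95% interval 0.43 to 1.80, limma adjusted p = 0.444), or 2.16-fold. It was 1.12 among Cy3-labelled mice and 1.11 among Cy5-labelled mice, and between 0.73 and 1.39 under all 29 alternative treatments. Hspa4, an Hsp110-type exchange factor, had the lowest tested difference of the family at 1 probe, -0.47 (SE 0.44), and 0.15 (SE 0.29) at another. A further Hspa4 probe gave -0.01 (SE 0.58) with marked spots kept.

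Hspa1a, the classical stress-induced Hsp70, was near the detection limit, above background in 7 of 8 samples. Its levels were 7.43, 7.55, 7.85 and 7.89 in the heterozygous samples, against 7.56, 7.04, 7.53 and 7.52 in the wildtype samples. The groups overlapped, and the difference was 0.27 (SE 0.35, limma adjusted p = 0.933). The accessions listed for this probe include those of Hspa1b, so the 2 near-identical copies were not distinguished. Hspa1a and its testis-type neighbour Hspa1l lie 851 and 860 kb from the nearer Brd2 probe on chromosome 17 (mm9). Hspa1l was above background in 4 of 8 samples, and its difference was 0.13 (SE 0.24). Hspa2, an Hsp70 best known from spermatogenesis, had marked spots in heterozygous replicates 1 and 2. With these kept, its levels were 10.70, 10.49, 9.96 and 9.74 in the heterozygous samples and 11.46, 11.31, 11.29 and 11.47 in the wildtype samples, with no overlap. That difference was -1.16 (SE 0.33, limma adjusted p = 0.363). Hspa2 was outside the rule for named genes and was chosen after its values were seen.

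**Figure D2:**
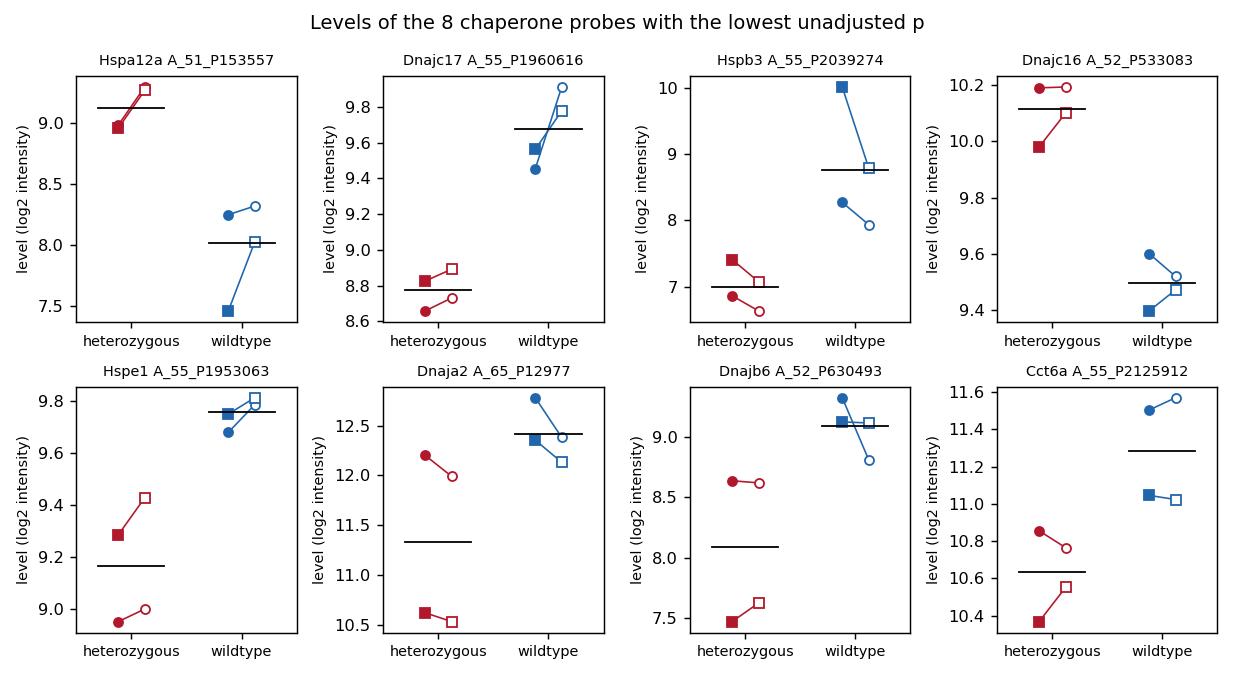
Log2 level (y axis) of the 8 tested chaperone probes at an unadjusted p under 0.05, in heterozygous (red, left) and wildtype (blue, right) samples. Circles are replicates 1 and 2, squares replicates 3 and 4, filled symbols Cy3 and open symbols Cy5. Coloured lines join the mice of 1 array and black lines are group means. In 7 of the 8 the genotypes do not overlap, while Dnaja2 overlaps at heterozygous replicate 1.

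Hspa8, the constitutive neuronal Hsp70 that also uncoats clathrin vesicles, was read by 3 probes that differed in sign. A pair of these probes is printed because their differences were of opposite sign. The one at chr9:40611142-40611201 and the one whose ends map to chr9:40612755-40613050, which spans 296 bases of genome with 60 bases of probe, read as follows (mm9, plus strand).
Hspa8 A_52_P12877: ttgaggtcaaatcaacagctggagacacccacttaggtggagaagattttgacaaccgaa
Hspa8 A_55_P2069721: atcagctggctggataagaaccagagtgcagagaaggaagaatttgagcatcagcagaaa
The spanning probe had levels of 15.03, 15.07, 14.89 and 14.97 in the heterozygous samples, against 16.38, 16.10, 16.29 and 16.34 in the wildtype samples, with the marked spots of heterozygous replicates 3 and 4 kept. Both groups were tight and more than 1 log2 unit apart. Its difference was -1.29 (SE 0.27, 95% interval -1.89 to -0.68, limma adjusted p = 0.284), or 0.41-fold, and ranged from -1.37 to -0.97 over 16 alternatives. The unmarked probe read 12.56, 12.62, 12.13 and 12.40 in the heterozygous samples, against 13.09, 12.80, 11.13 and 11.004 in the wildtype samples. There the wildtype arrays lay on either side of the heterozygous values, and the difference was 0.42 (SE 0.54, adjusted p = 0.932). The probe farthest downstream, at chr9:40613223-40613282, gave -0.28 (SE 0.48) with its marked spot kept. Among all 2870 genes with several tested probes, 51.4% had differences of both signs.

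Hsph1, the stress-induced Hsp110, was read by a pair of probes with marked spots. The probe at chr5:150419744-150419803 (mm9) had levels of 13.18, 13.52, 13.92 and 13.88 in the heterozygous samples, against 13.21, 13.12, 12.22 and 11.91 in the wildtype samples. Its difference was 1.01 (SE 0.44, limma adjusted p = 0.556), with heterozygous replicate 1 inside the wildtype range. It was 0.46 with the array of wildtype replicates 3 and 4 left out and 1.56 with that of wildtype replicates 1 and 2 left out. That of the other probe, at chr5:150420110-150420169, was 0.06 (SE 0.36). Hspa5 (BiP), the Hsp70 of the endoplasmic reticulum, had 14.00, 13.93, 13.04 and 13.09 in the heterozygous samples, against 14.07, 13.85, 14.31 and 14.30 in the wildtype samples, with marked spots kept. Only the array of heterozygous replicates 3 and 4 was apart, and the difference was -0.62 (SE 0.33, adjusted p = 0.661). Hspa5 too was chosen after its values were seen.

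**Figure D3:**
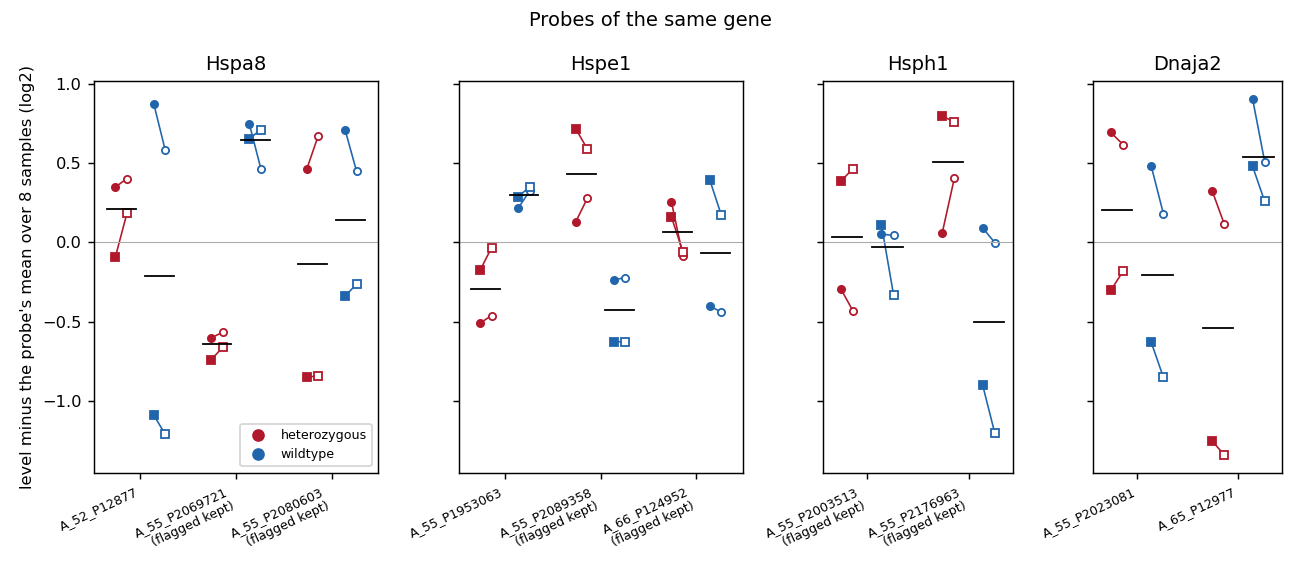
Log2 level minus the probe's own mean over 8 samples (y axis) for the probes of Hspa8, Hspe1, Hsph1 and Dnaja2, in heterozygous (red, left of each pair) and wildtype (blue, right) samples, with symbols for arrays and dyes as circles (replicates 1 and 2), squares (3 and 4), filled (Cy3) and open (Cy5). Black lines are group means. Probes of 1 gene place the genotypes in different order, as in Hspe1, where the difference is -0.59 at A_55_P1953063 and 0.86 at A_55_P2089358.

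The Hsp90 family had 3 probes, all with differences close to 0 relative to their error. Hsp90ab1, the constitutive cytosolic form and the only one without marked spots, had 15.97, 16.19, 16.40 and 16.46 in the heterozygous samples, against 16.62, 16.31, 16.16 and 16.17 in the wildtype samples. The groups overlapped, and the difference was -0.06 (SE 0.31, 95% interval -0.75 to 0.63). With marked spots kept, that of Hsp90aa1, the inducible cytosolic form, was -0.17 (SE 0.49), and that of Hsp90b1 (Grp94) of the endoplasmic reticulum was -0.10 (SE 0.31).

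Among small heat shock proteins, 3 of 5 tested probes lay above 0, with a median of 0.03. Hspb3, a small heat shock protein of muscle, passed the filter on low values through the wildtype samples, where it was above background in all 4, against 2 of 4 heterozygous samples. Its levels were 6.86, 6.64, 7.41 and 7.08 in the heterozygous samples, against 8.27, 7.94, 10.01 and 8.79 in the wildtype samples. The groups did not overlap, and the wildtype values spread over more than 2 log2 units. The fitted difference was -1.76 (SE 0.56, limma adjusted p = 0.497), but with heterozygous values at or near background its size is uncertain, and it was -1.11 with the array of wildtype replicates 3 and 4 left out. The log2 summed level of the 7 atrial muscle markers was 10.04 to 10.42 in the heterozygous samples and 10.54 to 12.21 in the wildtype samples, and its part in the Hspb3 value was not tested. Hspb1 (Hsp25), the stress-induced member, had 10.35, 10.35, 11.19 and 11.14 in the heterozygous samples, against 11.003, 11.13, 11.63 and 11.85 in the wildtype samples, with a marked spot of wildtype replicate 4 kept. The groups overlapped slightly, and the difference was -0.64 (SE 0.35, adjusted p = 0.663). Hspb9, a testis-type member, gave 0.41 (SE 0.37), and Hspb6 gave -0.06 (SE 0.29).

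Hspd1 (Hsp60) and Hspe1 (Hsp10) form the mitochondrial chamber and its lid. Hspd1 was nearly level, with 12.35, 12.36, 12.61 and 12.80 in the heterozygous samples and 12.42, 12.33, 12.63 and 12.71 in the wildtype samples, a difference of 0.01 (SE 0.26) with marked spots kept. The 3 Hspe1 probes gave differences of unlike sign and size. The tested one, whose ends map to chr1:55147620-55147946 (mm9), had 8.95, 9.0002, 9.29 and 9.43 in the heterozygous samples, against 9.68, 9.79, 9.75 and 9.81 in the wildtype samples. Every heterozygous sample was below every wildtype sample, and the difference was -0.59 (SE 0.23, limma adjusted p = 0.575). The other 2 probes overlap by all but 3 bases, and with marked spots kept their differences were 0.86 (SE 0.28, adjusted p = 0.421) and 0.14 (SE 0.30). Over the 57 aligned bases they differ once, as C15T counted from the 5′ end of the first. The tested probe is shown whole, and the overlapping pair by their first 30 bases with the differing base in capitals, since they show how close in sequence these unequal readings lie.
Hspe1 A_55_P1953063: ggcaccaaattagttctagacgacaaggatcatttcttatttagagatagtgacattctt
Hspe1 A_55_P2089358: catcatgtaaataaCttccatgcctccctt
Hspe1 A_66_P124952: catgtaaataaTttccatgcctccctttta
The first of the overlapping pair, at chr1:55148023-55148082, had 12.07, 12.21, 12.65 and 12.53 in the heterozygous samples, against 11.70, 11.71, 11.31 and 11.31 in the wildtype samples. The other, at chr1:55148026-55148085, had 12.32, 11.98, 12.23 and 12.01 in the heterozygous samples, against 11.67, 11.63, 12.46 and 12.24 in the wildtype samples. The genotypes were apart at the first and overlapped at the other, where the array of wildtype replicates 3 and 4 was high.

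TRiC, the ring that folds actin and tubulin, had 8 of 10 subunit probes above background and 4 tested, 3 of which lay above 0 (median 0.07). Cct6a had 10.85, 10.76, 10.37 and 10.55 in the heterozygous samples, against 11.50, 11.57, 11.04 and 11.02 in the wildtype samples. The groups did not overlap, and the difference was -0.65 (SE 0.27, limma adjusted p = 0.607), or -0.40 with the array of wildtype replicates 1 and 2 left out. Cct4 had 11.95, 11.83, 11.35 and 11.35 in the heterozygous samples, against 11.74, 11.50, 10.41 and 10.18 in the wildtype samples. The low values were those of wildtype replicates 3 and 4, and the difference of 0.66 (SE 0.41) was -8.2e-05 without their array. Cct5 gave 0.09 (SE 0.25). Subunits of this 1 complex thus had fitted differences from -0.65 to 0.66, none past the test.

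The Dnaja group holds the general Hsp70 partners. Dnaja1, which is induced by heat, had 13.09, 12.85, 13.27 and 13.07 in the heterozygous samples at its probe with marked spots, against 13.97, 13.61, 13.80 and 13.67 in the wildtype samples. The groups did not overlap, and the difference was -0.70 (SE 0.24, limma adjusted p = 0.435). Its tested probe, above background in 7 of 8 samples, gave -0.27 (SE 0.25). Dnaja2 was read by a pair of probes of opposite sign. The probe at chr8:88062657-88062716 (mm9) had 12.20, 11.99, 10.62 and 10.53 in the heterozygous samples, against 12.78, 12.38, 12.35 and 12.13 in the wildtype samples, a difference of -1.08 (SE 0.44, adjusted p = 0.602). Its low values were those of heterozygous replicates 3 and 4, and the difference was -0.32 without their array. The probe at chr8:88061548-88061607 had 10.35, 10.27, 9.35 and 9.47 in the heterozygous samples and 10.13, 9.83, 9.02 and 8.80 in the wildtype samples, a difference of 0.41 (SE 0.42).

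In the Dnajb group, 5 of 15 tested probes lay above 0 and 10 below, with a median of -0.17. Dnajb6, a strong suppressor of polyglutamine aggregation in cells, was read by 4 probes, all below 0. The probe whose ends map to chr5:30077544-30078952 (mm9) had 8.64, 8.62, 7.47 and 7.62 in the heterozygous samples, against 9.33, 8.81, 9.13 and 9.12 in the wildtype samples. The difference was -1.01 (SE 0.42, limma adjusted p = 0.605), with no overlap and with 3 of 4 heterozygous samples above background, and it was -0.47 with the array of heterozygous replicates 3 and 4 left out. The probe at chr5:30080099-30080158 gave -0.43 (SE 0.28), also with no overlap. The remaining pair shares 51 of 60 bases and gave -0.63 (SE 0.44) and -0.24 (SE 0.24). At the first of them the levels were 10.48, 10.82, 9.15 and 9.16 in the heterozygous samples, against 10.27, 10.41, 10.62 and 10.81 in the wildtype samples. At the other they were 10.56, 10.56, 10.10 and 10.12 in the heterozygous samples, against 10.52, 10.60, 10.56 and 10.60 in the wildtype samples. Heterozygous replicates 3 and 4 were the low samples at both, and without their array the value of -0.63 was 0.12. Dnajb1, the main inducible Hsp40, had 12.56, 12.88, 12.97 and 12.85 in the heterozygous samples and 12.91, 12.69, 12.76 and 12.71 in the wildtype samples, a difference of 0.05 (SE 0.31) with marked spots kept. Dnajb12, anchored in the endoplasmic reticulum membrane, had the highest difference of the group at 0.39 (SE 0.24), and Dnajb2, a neuronal form, gave 0.25 (SE 0.29).

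The Dnajc group is the most varied, with members tied to splicing, endocytosis and mitochondrial import. Of 29 tested probes, 12 lay above 0 and 17 below, with a median of -0.06. Dnajc17, a nuclear member with an RNA-binding motif, had 8.66, 8.73, 8.83 and 8.89 in the heterozygous samples, against 9.45, 9.91, 9.56 and 9.78 in the wildtype samples. The groups were well apart, and the difference was -0.90 (SE 0.27, 95% interval -1.50 to -0.29, limma adjusted p = 0.482), or 0.54-fold. Dnajc16 had 10.19, 10.19, 9.98 and 10.10 in the heterozygous samples, against 9.60, 9.52, 9.40 and 9.47 in the wildtype samples. These groups were also apart, by 0.62 (SE 0.23, adjusted p = 0.547).

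Dnajc5, the cysteine string protein of synaptic vesicles, had levels at 1 probe of 14.92, 14.93, 14.96 and 14.48 in the heterozygous samples and 14.06, 13.65, 14.86 and 14.71 in the wildtype samples. The groups overlapped, and its difference was 0.51 (SE 0.36), or 0.04 with the array of wildtype replicates 1 and 2 left out, while the other 2 tested Dnajc5 probes gave 0.02 and -0.34. Dnajc4 gave 0.32 (SE 0.28), and Dnajc8, a spliceosome-associated member, gave 0.42 (SE 0.28) at 1 probe and 0.00 at another. Dnajc13, which works in endosomal sorting, had 9.03, 9.33, 8.99 and 9.11 in the heterozygous samples, against 8.53, 8.82, 7.04 and 7.35 in the wildtype samples, with 1 marked spot kept. Its difference was 1.18 (SE 0.42, limma adjusted p = 0.457), and the lowest values were those of the array of wildtype replicates 3 and 4. Dnajc13 was chosen after its values were seen.

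Dnajc11, a mitochondrial membrane-organising protein, shows how far spots of the same probe differ, since one of its probes was spotted 10 times on each array. The log2 levels of these spots had SDs from 0.16 in heterozygous replicate 3 to 0.78 in wildtype replicate 4. Their means were 9.38, 9.53, 9.83 and 9.99 in the heterozygous samples and 9.47, 9.67, 9.36 and 9.43 in the wildtype samples. The spread was shared by mice of 1 array: wildtype replicates 3 and 4 read 7.85 and 7.89 at 1 spot, and 10.16 and 10.26 at another. The fitted difference between genotypes was 0.20 (SE 0.24) at this probe. At the other tested Dnajc11 probes it was -0.48 (SE 0.44) and 0.01 (SE 0.35). The other repeated probe, for Hspb7, was below background, with spot SDs of 0.06 to 0.17.

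**Figure D4:**
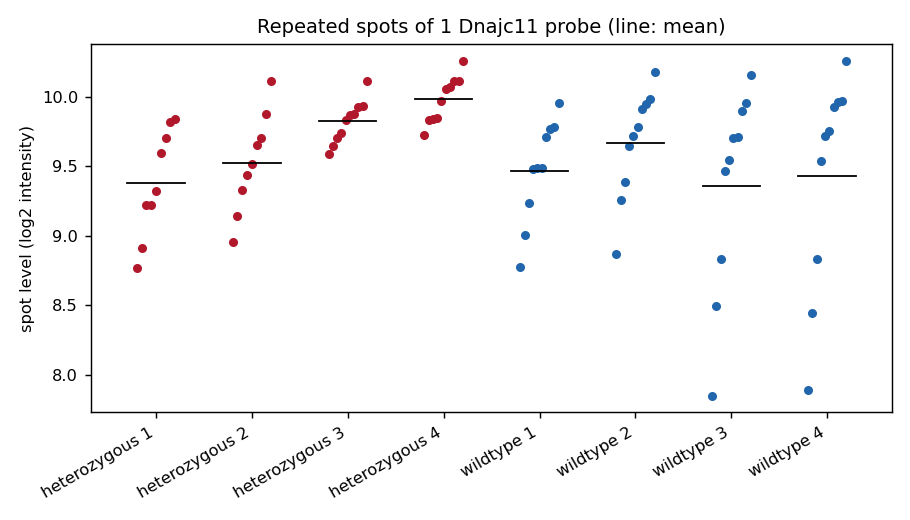
Log2 level of each unmarked spot of the repeated Dnajc11 probe (y axis) in the 4 heterozygous (red) and 4 wildtype (blue) samples, sorted by level within a sample, with the mean as a black line. Spots of wildtype replicates 3 and 4 reach from 7.85 to 10.26, and those of heterozygous replicates 3 and 4 stay between 9.59 and 10.26.

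A list headed stress-inducible was also taken across families, although it holds the constitutive Hspa8: 9 of the 10 genes listed have probes, all 9 above background, but only 4 probes of 4 genes were tested. Of these, 2 lay above 0 and 2 below, with a median of 0.00. With marked spots kept there were 15 probes, 8 above and 7 below 0, a median of 0.01, and 5 (33.3%) at an unadjusted p under 0.05 (2 higher, 3 lower), against 8.83% of all probes. Without Hspa8, an exception made after seeing the data, 1 of 3 tested probes lay above 0 (median -0.27). With marked spots kept, 7 of the 12 probes other than those of Hspa8 lay above 0, with a median of 0.03 and 4 at that level of p (2 higher, 2 lower). In the endoplasmic reticulum list, 3 of 6 tested probes lay above 0 (median -0.04), with none at an unadjusted p under 0.05. In the synaptic and clathrin-linked list, 3 of 5 tested probes lay above 0 (median 0.02), also with none at that level. The tested probes of both lists were part of all 18399 probes tested by limma. Keeping marked spots gave the endoplasmic reticulum list 9 probes, 4 above and 5 below 0, again with none at that level. It gave the synaptic and clathrin-linked list 8 probes, 4 above and 4 below 0 (median -0.06). There 2 had an unadjusted p under 0.05 in the fit of 22288 probes, Hspa8 A_55_P2069721 at -1.29 and Dnajc13 at 1.18.

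Promoters of these genes were searched for the heat shock element, the binding sequence of Hsf1. RefSeq windows (GRCm38.p6) from 250 bases before to 50 bases after the transcript start were found for 67 of the 82 gene names matched by accession. Either 8-base form, GAANNTTC or TTCNNGAA, each of which reads the same on both strands, was present in 21 of 84 chaperone windows (25%), against 15.1% of all 32851 windows. The 3-unit form, in which an 8-base form is followed, after any pair of bases, by another GAA or TTC unit in alternation, was searched on both strands. It contains the shorter forms and was present in 6 of 84 (7.14%), against 0.603%. The 6 windows belong to Dnajb6, Hspd1, Hspe1 and Hsph1. The Dnajb6 windows overlap and hold the same match, and so do those of Hsph1. A gene can have several windows (84 for 67 chaperone genes, 32851 for 27025 genes in all), so 1 match can be counted more than once. Parts of 4 windows are shown with matches in capitals, since they differ in how many units they hold: the Hspe1 stretch at chr1:55088053-55088082 (plus strand), Dnajb6 at chr5:29735798-29735897 (plus strand), Hspb1 at chr5:135887769-135887868 (plus strand) and Hspa1a at chr17:34972207-34972306 (minus strand).
Hspe1: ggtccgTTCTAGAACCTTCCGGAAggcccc
Dnajb6: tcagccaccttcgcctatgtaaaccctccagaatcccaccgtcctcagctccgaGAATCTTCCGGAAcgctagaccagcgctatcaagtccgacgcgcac
Hspb1: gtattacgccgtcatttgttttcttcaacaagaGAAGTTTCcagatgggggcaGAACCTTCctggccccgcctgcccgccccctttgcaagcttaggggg
Hspa1a: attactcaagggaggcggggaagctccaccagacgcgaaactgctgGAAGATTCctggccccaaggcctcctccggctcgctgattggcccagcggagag
The Hspe1 match lies between divergent starts, that of Hspd1 on the minus strand at position 55087932 and that of Hspe1 at 55088148, 216 bases apart, so both genes share it. A further listed Hspd1 start is at 55088243. The 4 genes with a 3-unit match had reported differences on both sides of 0: Hspd1 0.01, Hsph1 1.01 and 0.06, Hspe1 -0.59, 0.86 and 0.14, and Dnajb6 -1.01 to -0.24. A match is a description of the sequence only.

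Other treatments of the signal changed the size of these differences in different ways. Over the 16 chaperone probes with an unadjusted p under 0.05, marked spots kept where needed, all 16 kept their sign with the scanner's own processed signals and with a spatial trend over each array removed. Removing the trend brought all 16 closer to 0, and the processed signals 13. The deposited value table gave values for 8 of them, of which 7 lay farther from 0, Hspa12a at 1.27 and Dnajc17 at -1.08 among them, and 1 (Cct6a) closer. The processed signals moved the median of all probes to -0.53, and values from them are given relative to that median. On this scale Hspa8 A_55_P2069721 was -1.01, Hspa12a 0.73, Dnajc17 -0.66 and Dnajc13 1.12. Several others came closer to 0: Hspe1 A_55_P2089358 was 0.23 beside a reported 0.86, Hsph1 A_55_P2176963 0.22 beside 1.01, Cct7 0.17 beside 0.63, Dnajc19 A_55_P2028248 0.06 beside 0.56 and Cct6a -0.22 beside -0.65. The 3 that lay farther from 0 were Hspb3 at -2.53, Hspe1 A_55_P1953063 at -0.75 and Dnajb6 A_52_P630493 at -1.04. Cct7 and Dnajc19 were chosen after their values were seen.

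**Figure D5:**
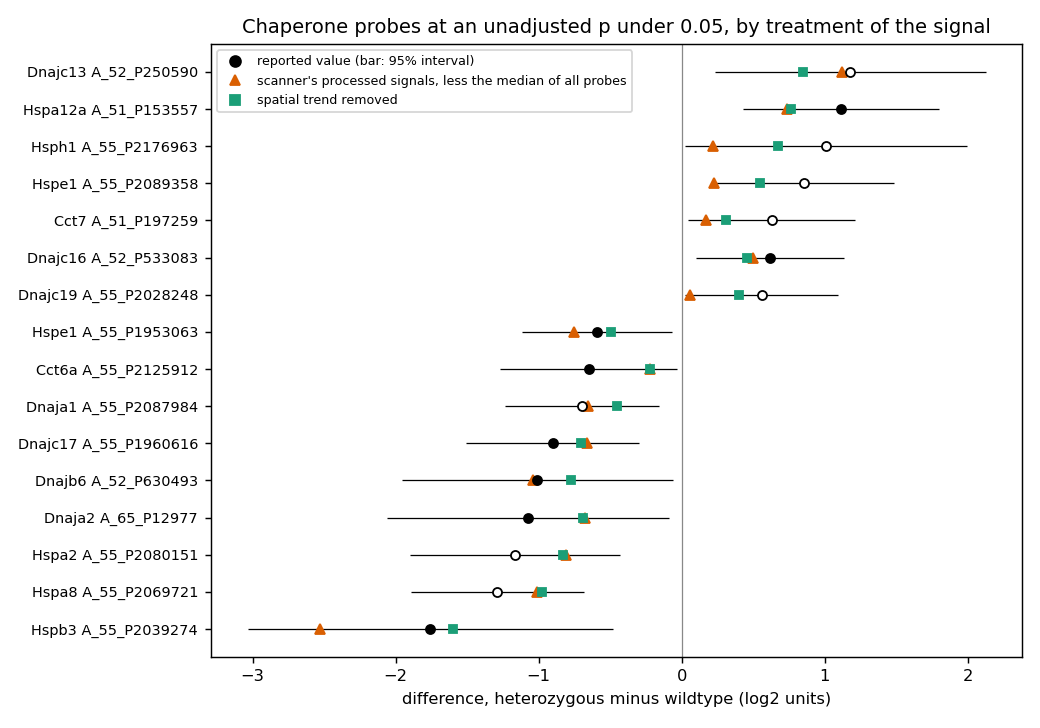
Difference in log2 level, heterozygous minus wildtype (x axis), of the 16 chaperone probes with an unadjusted p under 0.05 (rows). Circles are reported values with 95% intervals (filled: no marked spots, open: marked spots kept), triangles the scanner's processed signals less the median of all probes, squares the values after removal of a spatial trend. All 3 symbols of each probe lie on the same side of 0, and the triangle nearest 0 is that of Dnajc19.

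Other genes of the pathway gave no call either. Of 36 tested probes for regulators and co-chaperones, 17 lay above and 19 below 0 (median 0.00), with 4 (11.1%) at an unadjusted p under 0.05, against 8.05% of all probes. Trap1, the mitochondrial Hsp90, gave -0.79 (SE 0.27), and Ahsa1, which stimulates the Hsp90 ATPase, gave 0.63 (SE 0.26). The prefoldin subunit Pfdn5 gave -1.14 (SE 0.48), with only the array of heterozygous replicates 3 and 4 low. Its levels were 13.14, 12.84, 11.27 and 11.21 in the heterozygous samples, against 13.06, 13.10, 13.49 and 13.35 in the wildtype samples. Of 15 tested probes for folding factors of the endoplasmic reticulum, 7 lay above and 8 below 0 (median -0.07), and none had an unadjusted p under 0.05. The lowest p there belonged to Xbp1, a transcription factor of the unfolded protein response, at 0.54 (SE 0.26). This list also holds Dnajc25 (-0.29, SE 0.23), which is counted in the Dnajc group as well.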

How the data were processed

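Per the file headers, each array was scanned and quantified with Agilent Feature Extraction 11.0.1.1, and the deposited spot intensity values (mean signal and median background of both channels) are on a linear scale. The deposited value table holds a ratio, each spot's background-subtracted median signal over its channel's median (100% of values equal within 1e-06), and served as an alternative. From the deposited intensities, log2 levels were computed: normexp background correction (offset 50), loess within and Aquantile between arrays, marked spots removed and spots of 1 probe averaged. Probes well above background in at least 4 of 8 samples and with a value in all 8 were fitted with limma 3.58.1 (R 4.3.3), with dye as covariate and array as random block (correlation 0.81), and Benjamini-Hochberg adjustment over all probes. The fit was tested on simulated data of 18399 probes, with 50 probes changed at each size. It recovered 0% of 1.5-fold, 4% of 2-fold, 58% of 4-fold and 82% of 8-fold changes. There were 3 false calls, and 0 calls when no change was simulated. The absence of a call therefore says little about changes of 2-fold or less. Levels of different probes are not comparable, and the number of arrays limits the precision. The 8 samples were assigned by the labels. Chaperone genes and all lists were chosen with earlier results of these data known. Named probes were, by rule, those of the stress-inducible list, the 8 with the lowest p per direction, the brightest probe and the highest and lowest difference of each family, genes whose probes differ in sign by more than 1, members within 5 Mb of Brd2, and up to 4 genes of each further list. Hspa2, Hspa5, Hsp90b1, Dnajc13, Cct7 and Dnajc19 were added after their values were seen, and Dnajc11 and Hspb7 for their repeated spots. Markers of 10 cell types or tissues were listed. The summed levels of the cortical neuron, choroid plexus, ependymal, blood, astrocyte and oligodendrocyte lists overlapped between genotypes. The cortical neuron sum held 5 of 8 genes, and the astrocyte and oligodendrocyte sums 4 of 5 each. Probes of all lists were fitted the same way. A gene of the co-chaperone list is not reported here.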

Additional observations from a re-analysis of the deposited data

Results flagged for a closer look

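Among 74 groups of 4 samples checked for a single distant sample (37 probes named by rule, each in both genotypes), 3 held one. For 4 independent samples chance gives about 1 in 20 groups. Mice of 1 array were correlated (0.81), so that rate does not hold exactly here. Dnajc5 A_55_P1982737 was at 14.48 in heterozygous replicate 4, and 14.92 to 14.96 in the other heterozygous samples. Hsph1 A_55_P2003513 was at 11.65 in wildtype replicate 4, and 12.02 to 12.09 in the other wildtype samples. Hspa1a A_55_P2068459 was at 7.04 in wildtype replicate 2, and 7.52 to 7.56 in the other wildtype samples.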

How the results depend on the processing

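The number of probes past an adjusted p of 0.05, 0 among all probes and 0 among the chaperones, was 1 of all probes with the deposited value table. Treating the 8 mice as independent, with no array block, gave 539 of all probes and 2 chaperones (Hspa12a and Dnajc17). Leaving out 1 mouse or array at a time gave 0 to 23 over all probes, the highest when wildtype replicates 1 and 2 were absent, and 0 chaperones in each. At an unadjusted p under 0.05 there were 8 of 67 chaperone probes (11.9%, against 8.05% of all probes). With marked spots kept there were 16 of 97 (16.5%, against 8.83%). Among the same 67 the count was 4 with median centring, with array means or with Cy3 samples alone. It was 3 with the value table or Cy5 samples alone and 5 with the spatial trend removed. With 1 mouse or array left out it was 3 to 10, among 67 to 75 probes. Fitting the replicate number as a block gave 0 calls in all probes and 9 of 67 chaperone probes at an unadjusted p under 0.05. The share of all probes at that level is not given for these other settings. Same-numbered samples deviated together at r = 0.04, 0.26, 0.16 and 0.12, and not every sample correlated best with its own number, so the numbers were not taken to pair mice. The 37 probes named by rule had 920 alternative values. Of these, 873 kept direction and side of the threshold, 4 passed the threshold (all with no array block) and 43 changed sign. Alternatives that kept marked spots together with another choice were added after seeing the data. In these terms, 20 probes never changed sign, Hspa12a, Dnajc17, Hspb3, Dnajc16, Cct6a and Hspa8 A_55_P2069721 among them. The processed signals, relative to the median of all probes, turned Hsp90ab1 to 0.12, Hspb6 to 0.062, Hspd1 to -0.13 and Hsph1 A_55_P2003513 to -0.17. Removing the spatial trend turned Hspa1a to -0.11, Hspd1 to -0.027 and Hsph1 A_55_P2003513 to -0.088. Cy5 samples alone turned Hsp90ab1 to 0.083, and Cy3 samples alone turned Hspb6 to 0.090. With 1 mouse or array left out, values ranged from -8.2e-05 to 1.33 for Cct4, -0.084 to 0.26 for Cct5, -0.54 to 0.0064 for Dnaja1 A_55_P1992149, -0.12 to 0.95 for Dnaja2 A_55_P2023081, -0.053 to 0.16 for Dnajb1, -0.021 to 0.51 for Dnajb2 and -1.38 to 0.12 for Dnajb6 A_55_P2013188. They ranged from -0.80 to 0.46 for Hsp90aa1, -0.23 to 0.11 for Hsp90ab1, -0.091 to 0.34 for Hspa1l, -0.52 to 1.36 for Hspa8 A_52_P12877, -0.99 to 0.43 for Hspa8 A_55_P2080603, -0.28 to 0.16 for Hspb6, -0.17 to 0.18 for Hspd1, -0.22 to 0.49 for Hspe1 A_66_P124952 and -0.33 to 0.46 for Hsph1 A_55_P2003513. With 1 array left out, 10 more kept their sign but moved by over 1.5 times: -0.90 to -0.40 for Cct6a, -1.83 to -0.32 for Dnaja2 A_65_P12977, -1.55 to -0.47 for Dnajb6 A_52_P630493, 0.041 to 0.97 for Dnajc5, 0.078 to 0.45 for Hspa1a, -0.86 to -0.073 for Hspa4, -1.05 to -0.24 for Hspb1, -2.41 to -1.11 for Hspb3, 0.18 to 0.64 for Hspb9 and 0.46 to 1.56 for Hsph1 A_55_P2176963. Where the left-out samples were an array, 1 genotype rested on a single array; the cause of the other changes was not tested. Median signal over background ranged from 3.72 in heterozygous replicate 4 to 10.5 in wildtype replicate 1, which limits the dim probes, such as those of Hspa1a, Hspa1l and Hspb3.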
